A study of Mus musculus with 10 samples.

Results

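The genes described here are the mouse Wnt ligands, their Frizzled receptors and the secreted proteins that inhibit them, with 3 further pathway genes, measured in differentiating embryonic stem cells. They were chosen by symbol: every Wnt, Fzd, Sfrp and Dkk gene on the array, plus Lef1, Axin2 and Wif1, on probe sets that name exactly 1 gene. This gave 40 of the 18193 genes measured: 19 Wnt ligands, 10 Frizzled receptors, 4 Sfrp genes, 4 Dkk genes and the 3 added genes. Where several probe sets name a gene, as for 24 of the 40, the one that was brightest on average stands for it.

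Wnt proteins are secreted lipid-modified signals that bind Frizzled receptors together with the co-receptors Lrp5 and Lrp6, which stabilises beta-catenin and lets it act with the DNA-binding proteins TCF and LEF on target genes; some Wnts act through Frizzled or Ror receptors without beta-catenin. Sfrp proteins and Wif1 bind Wnts outside the cell, and most Dkk proteins act on Lrp5 and Lrp6. Axin2, Lef1 and Dkk1 are well known targets of beta-catenin, and Axin2 and Dkk1 feed back to limit the signal. In the embryo the pathway patterns the primitive streak and mesoderm and takes part in lung and kidney development.

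All arrays came from C57BL/6 mouse embryonic stem cells. Cells at day 8 of differentiation were left as control or given KGF (keratinocyte growth factor, FGF7). At days 17 and 24 there were 4 conditions each: control, KGF, DCI, and KGF with DCI. DCI is taken here as the combination of dexamethasone, a glucocorticoid, with agents that raise cyclic AMP, as the series title words it. Each of the 10 conditions had 1 array, so no condition has a replicate, and the sources used here do not say whether the arrays came from separate cultures or whether the line was 1 clone. The tests below therefore take their error from an additive model of day, KGF and DCI, and its p-values measure array noise together with any departure from additivity.

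Values are log2 expression, and a difference of 1 is a 2-fold change. Within a day, values are listed in the order control, KGF, DCI, KGF with DCI (control then KGF at day 8). Levels of different genes are not compared, because each probe set has its own response. RNA from whole cultures was measured, so fewer cells of a type and less RNA per cell cannot be told apart.

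The cultures were mixed and changed in makeup between days. The mean log2 level of 7 macrophage markers was 4.59 to 4.65 at day 8, 8.58 to 9.22 in the 4 arrays of days 17 and 24 without DCI, and 5.86 to 6.97 in the 4 with DCI. Mesenchymal markers (10 genes) went from 9.88 at day 8 to between 11.11 and 11.19 at day 24, and epithelial markers (8 genes) from 9.42 to 9.76 at day 8 to between 10.40 and 10.95 at day 24. Of 6 stem cell markers, 2 rose to day 17 and 3 fell to day 24. All 8 genes listed as known responders to glucocorticoid or cyclic AMP were higher with DCI, with a median difference of 1.57. One array, the control of day 8, differed from the other 9 in its control probe sets: the 3′ minus 5′ signal of the dap spike-in was 4.80 there and 1.35 to 2.68 on the other arrays, and that of Actb was 1.05 against 0.46 to 0.62. The differences from day 8 to day 17 and those for KGF draw on this array and are given without it as well. The fits for DCI and for day 17 to day 24 also include it, where it bears on the error.

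Promoter sequences were matched for 28 of the 40 genes, as 34 windows of 300 bases (250 before and 50 after the start; RefSeq, GRCm38.p6). Forms of the TCF/LEF recognition motif were searched on both strands: the letters CTTTGAT, their variant CTTTGAA, the variant CTTTGTA and the variant CTTTGTT. They occurred in 6 of the 34 windows (17.65%), against 16.88% of the 32851 windows in the whole table, a like share. The cyclic AMP response element TGACGTCA, which reads the same on both strands, occurred in 0 of the 34 windows and in 1.79% of all windows. Of the genes that fell between days 8 and 17, 7 have a window and 3 hold these letters. Of those that rose, 8 have a window and 1, Wnt5b, holds them. Some genes, such as Wnt11 and Wnt5b, have several windows, so these counts of genes cannot be set beside the shares of windows. Whether the letters go with the direction of change was not tested. The 150 bases before the start are printed for the 3 fallers only. Wnt5b, which rose, and Lef1 and Wnt3, which did not pass between these days, also hold the letters and are not printed. The other Wnt11 window holds none of them. Capitals mark the TCF/LEF letters, which lie on the gene's own strand in Dkk1 and read in reverse complement in Fzd7 and Wnt11. The windows are chr19:30549497-30549646 on the minus strand for Dkk1, chr1:59481997-59482146 on the plus strand for Fzd7 and chr7:98834962-98835111 on the plus strand for Wnt11.
Dkk1: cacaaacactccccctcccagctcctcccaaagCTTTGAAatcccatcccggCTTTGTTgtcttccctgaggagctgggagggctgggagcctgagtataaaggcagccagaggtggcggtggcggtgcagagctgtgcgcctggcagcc
Fzd7: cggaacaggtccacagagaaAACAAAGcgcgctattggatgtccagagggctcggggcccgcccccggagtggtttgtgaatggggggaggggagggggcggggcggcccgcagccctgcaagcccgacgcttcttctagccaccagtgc
Wnt11: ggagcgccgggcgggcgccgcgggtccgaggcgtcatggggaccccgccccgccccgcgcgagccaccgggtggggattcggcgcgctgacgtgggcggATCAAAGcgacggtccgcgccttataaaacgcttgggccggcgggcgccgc
A match is a run of letters and not a measured binding site.

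The 40 genes had wide ranges over the arrays. The range from the lowest to the highest array had a median of 1.13 over the 40, against 0.77 over all genes, and 23 of the 40 ranged by at least 1, beside 35.45% of all genes. On all 10 arrays, 9 of the 40 lay above the median of all gene values (6.67) and 17 lay below it. In the 6 comparisons below, 27 genes passed an adjusted p of 0.05 (limma with Benjamini-Hochberg adjustment over 18193 genes) in at least 1, and 13 in none. Those 13 were Wnt1, Wnt2b, Wnt3, Wnt3a, Wnt8a, Wnt8b, Wnt9b, Wnt16, Fzd8, Fzd9, Fzd10, Sfrp4 and Dkk4; 11 of them lay below the median on all arrays, and their ranges ran from 0.36 to 1.65.

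**Figure D1:**
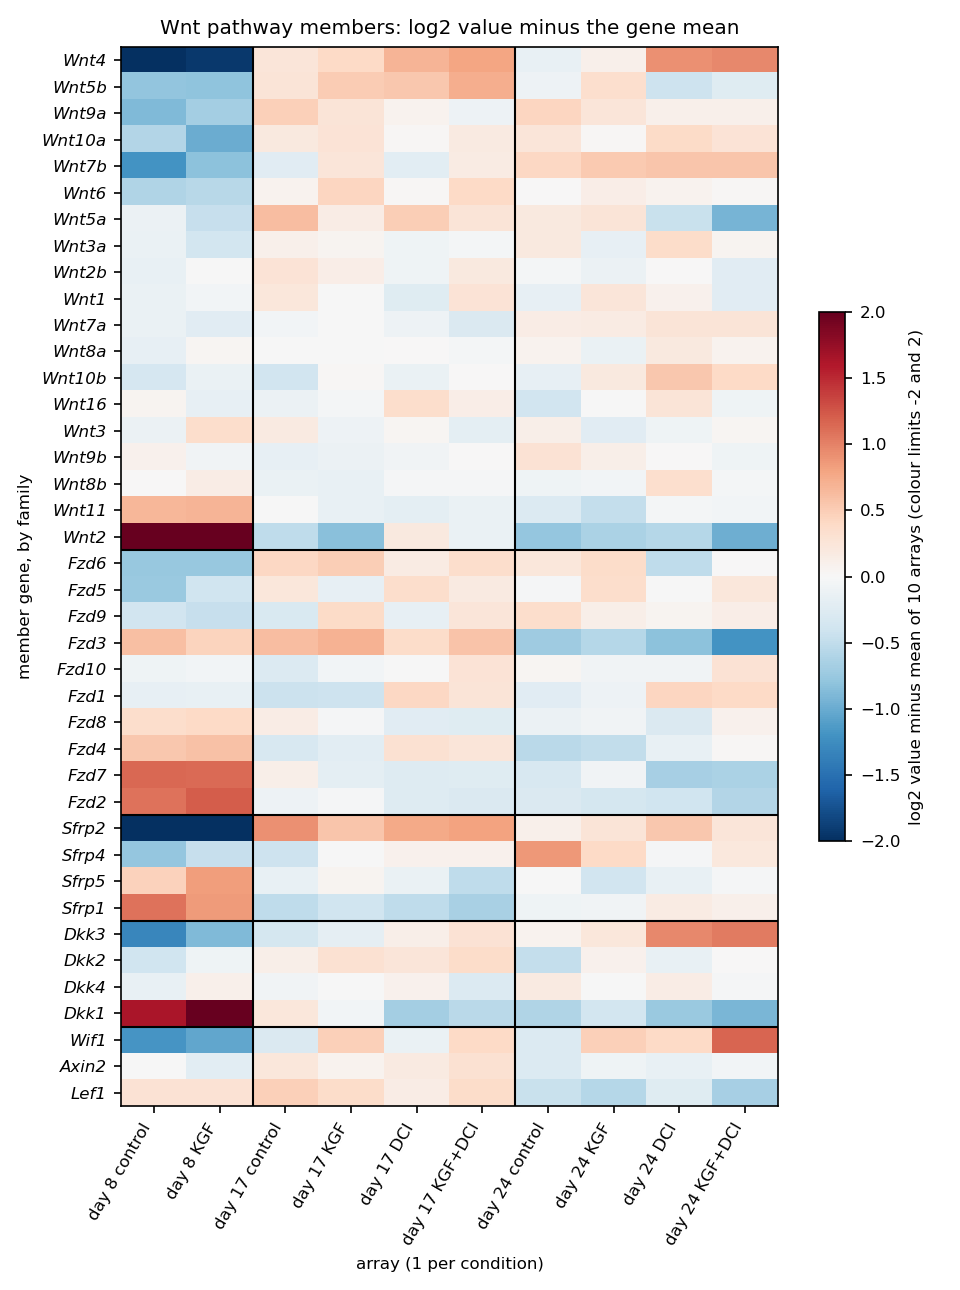
Log2 value minus the gene's own mean over the 10 arrays, for the 40 genes (rows, by family) on the 10 arrays (columns, by day and treatment); colours are limited to -2 and 2. The largest blocks separate the 2 day 8 arrays from the rest, as in Wnt2 and Dkk1 (high at day 8) and Sfrp2 and Wnt4 (low at day 8).

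Between days 8 and 17 many of the genes changed, in both directions. Among ligands, Wnt2 and Wnt11 fell while Wnt4, Wnt5a, Wnt5b, Wnt6, Wnt7b, Wnt9a and Wnt10a rose. Frizzled genes 1, 2, 4 and 7 fell while Fzd5 and Fzd6 rose. Among inhibitors, Sfrp2 rose by 2.78 and Dkk2, Dkk3 and Wif1 rose by less, while Sfrp1, Sfrp5 and Dkk1 fell. In all, 13 of the 40 rose (32.5%) and 9 fell (22.5%), beside 21.4% of all genes that rose and 21.0% that fell, so the falling share was near the background. The median difference was 0.13 over the 40 and -0.02 over all genes, and the median size without sign 0.65 against 0.27.

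Wnt2, a ligand of the early lung mesenchyme, had the greatest fall on the chosen probe sets. It read 9.13 and 9.06 at day 8, then 6.45, 6.13, 7.17 and 6.83 at day 17 and 6.20, 6.33, 6.39 and 5.99 at day 24. Both day 8 arrays lay above every later array. The difference from day 8 to day 17 was -2.60 ± 0.21 (SE, 10 arrays; limma adjusted p = 2.77e-06). Wnt11, a ligand that acts largely without beta-catenin, fell by 0.85 on the log2 scale.

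Wnt4, which the kidney and reproductive tract need, moved the opposite way. It read 6.94 and 7.02 at day 8 and 9.19, 9.34, 9.63 and 9.73 at day 17, a difference of 2.15 ± 0.13 (SE; limma adjusted p = 4.22e-07) with no overlap. Wnt7b, an epithelial ligand of the lung, read 6.19 and 6.56 at day 8, 7.16, 7.62, 7.17 and 7.55 at day 17 and 7.80, 7.91, 7.94 and 7.94 at day 24. Each day lay wholly above the one before, with a difference of 0.99 ± 0.12 (SE; limma adjusted p = 7.57e-05) to day 17 and 0.44 on another probe set. Wnt5a, a ligand that acts mainly through Ror receptors, read 9.17 and 8.83 at day 8 and 9.90, 9.43, 9.78 and 9.55 at day 17. The additive model gave a difference of 0.89, and 0.30 on 1 of the other Wnt5a probe sets. On the 6 arrays without DCI the difference was 0.67. Wnt5b, a close relative of Wnt5a, rose by 1.35 ± 0.19 (SE; limma adjusted p = 2.00e-04). Wnt9a, known from joint formation, rose by 1.11 ± 0.11 (SE; limma adjusted p = 1.83e-05), and its second, dim probe set gave -0.04. Wnt10a, a ligand of teeth and hair, rose by 0.94 and Wnt6 by 0.82.

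Among the receptors, Fzd2 read 10.20 and 10.31 at day 8 and 8.997, 9.09, 8.85 and 8.81 at day 17 (difference -1.22 ± 0.08 SE; limma adjusted p = 8.53e-07). Fzd7, the Frizzled best known from pluripotent cells, read 10.10 and 10.09, then 9.08, 8.76, 8.69 and 8.71 (difference -1.12 ± 0.12 SE; limma adjusted p = 2.46e-05), and its other probe set gave -0.56. Neither gene's day 8 arrays overlapped the later ones. Fzd6 read 6.54 on both day 8 arrays and 7.71, 7.78, 7.45 and 7.64 at day 17 (difference 1.29 ± 0.14 SE; limma adjusted p = 2.85e-05), also without overlap, but its other probe sets gave 0.25 and 0.09, and the mean of the 3 gave 0.54. Fzd4, the receptor of norrin as well as of Wnts, fell by 0.81 on the log2 scale (-0.23 on 1 of its other probe sets). Fzd5 rose by 0.68 (0.08 on its other probe set). Fzd1 fell by 0.22 in the additive model, and its other probe set gave 0.01. It read 10.56 and 10.58 at day 8 and 10.29, 10.31, 11.14 and 10.98 at day 17. The days overlapped, since the day 17 arrays with DCI lay above both day 8 arrays.

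Of the secreted inhibitors, Sfrp2 changed most of the 40 genes on the chosen probe sets. It read 7.56 and 7.54 at day 8, 10.55, 10.20, 10.40 and 10.45 at day 17 and 9.75, 9.90, 10.19 and 9.88 at day 24 (difference to day 17 2.78 ± 0.12 SE; limma adjusted p = 2.19e-08). Every later array lay above both day 8 arrays. Its relative Sfrp1 read 10.46 and 10.23 at day 8, then 8.88, 8.98, 8.87 and 8.74 (difference -1.50 ± 0.11 SE; limma adjusted p = 1.25e-06), again without overlap. Other Sfrp1 probe sets gave -0.53 and -0.80. Sfrp5 read 6.33 and 6.71 at day 8 and 5.37 to 5.94 at day 17, a difference of -0.78, and its other probe set gave -3.27.

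Dkk1, the feedback inhibitor of Lrp5 and Lrp6 whose promoter is printed above, read 6.77 and 7.17 at day 8, 5.37, 5.09, 4.47 and 4.61 at day 17 and 4.54, 4.78, 4.40 and 4.23 at day 24. The day 8 values lay above all later ones, and the difference to day 17 was -1.83 ± 0.18 (SE; limma adjusted p = 1.46e-05). Its second probe set gave -1.81. Dkk3, a family member that does not act as the others do on Lrp6, read 6.23 and 6.64 at day 8 and 7.17, 7.35, 7.65 and 7.82 at day 17 (difference 0.73). Dkk2 rose by 0.44, while Dkk4 ranged by only 0.44 over all 10 arrays.

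Of the added genes, Wif1 passed. It read 2.77 and 2.90 at day 8 and 3.65, 4.42, 3.81 and 4.34 at day 17 (difference 1.04 ± 0.21 SE; limma adjusted p = 0.00193), below the median of all gene values on every array. Axin2 differed by 0.26 and Lef1 by 0.08 between the days, and neither passed. Beside these changes, all 7 macrophage markers and all 6 neuronal markers rose, with medians of 4.59 and 1.59, and 6 of 10 mesenchymal markers rose while 3 fell. Of 6 endothelial markers 3 fell and 0 rose (median -0.90). The part of these markers' cell types in the result was not tested. Without the day 8 control array 19 of the 22 genes passed, with Dkk2, Fzd1 and Fzd5 lost. Without the day 8 KGF array 18 passed, with Dkk2, Fzd1, Sfrp5 and Wnt5a lost.

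**Figure D2:**
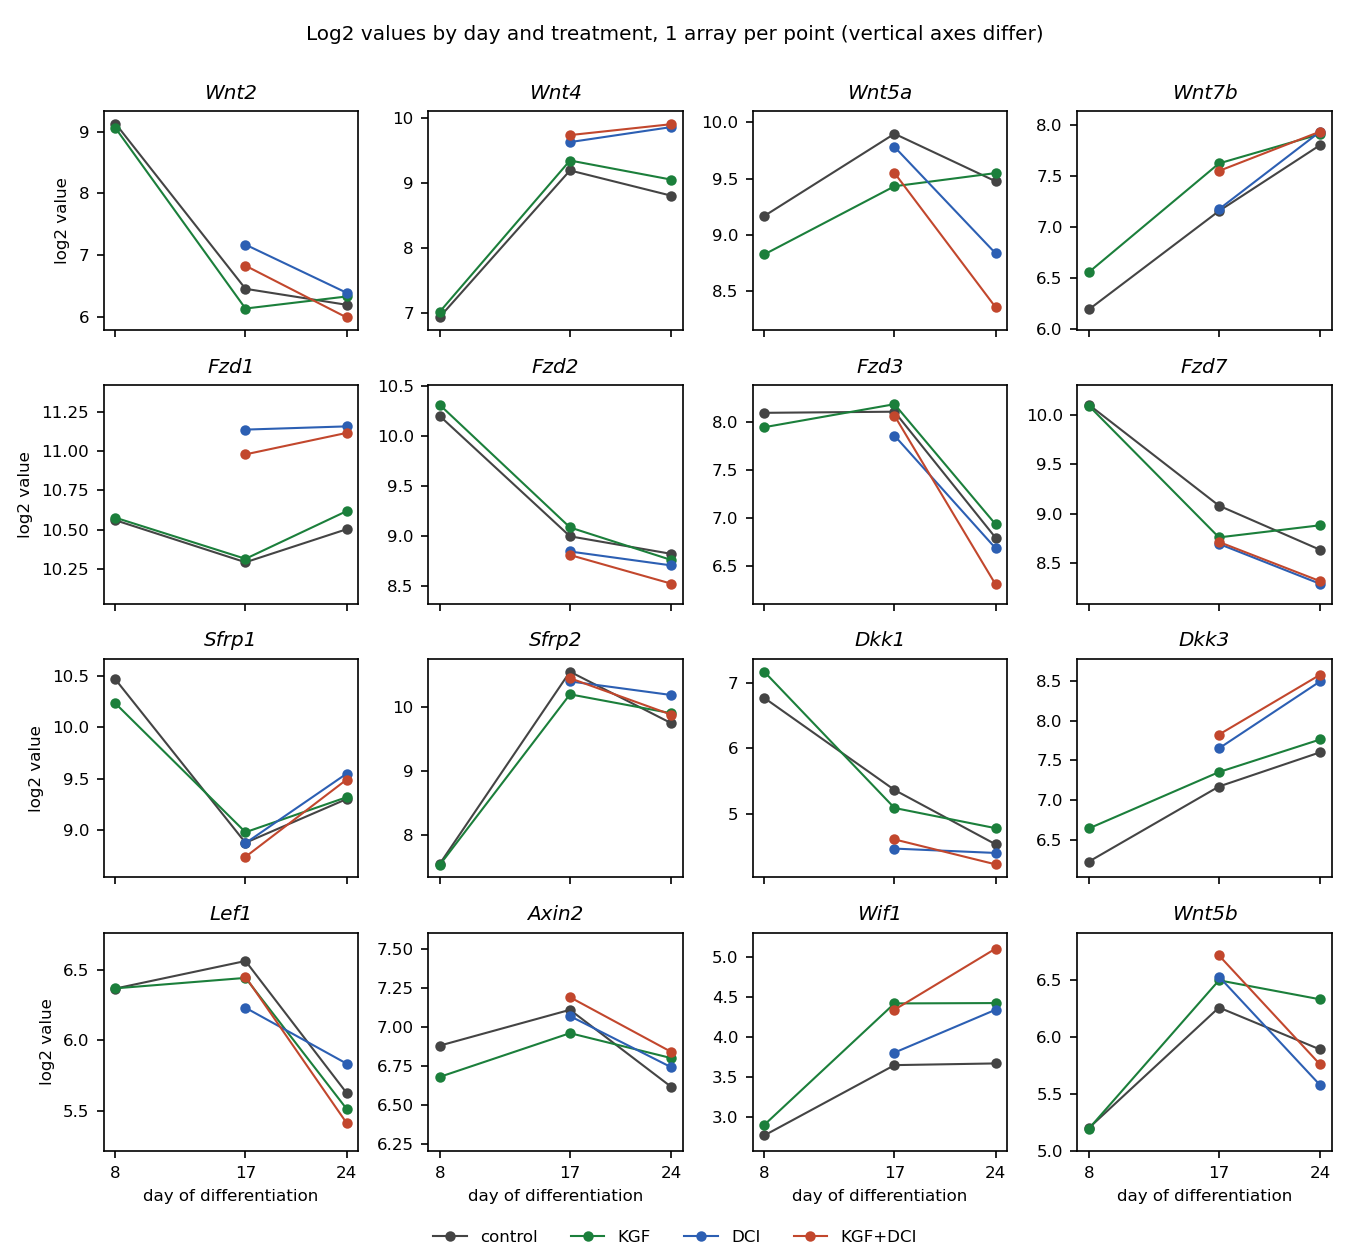
Log2 level (vertical axis, its range set per gene) against day of differentiation (8, 17 and 24) for 16 of the genes, 1 point per array, with a line for each treatment. Wnt2, Fzd2 and Dkk1 drop after day 8, Sfrp2 and Wnt4 climb, Fzd3 and Lef1 drop between days 17 and 24, and the DCI lines part from the others for Fzd1 and Wnt4.

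Between days 17 and 24 Fzd3 and Lef1 had the largest differences among the chosen probe sets, both downward. In all, 12 of the 40 fell (30.0%) and 6 rose (15.0%), beside 22.5% and 14.8% of all genes, which lean down too; the rising share was near the background. The median difference was -0.015 over the 40 and -0.0135 over all genes. Most of these differences were small: 1 of the 18 reached 1 on the log2 scale.

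Among ligands, Wnt5a differed by -0.61 ± 0.17 (SE; limma adjusted p = 0.0150), lower in 3 of 4 matched pairs, but by -0.15 (adjusted p = 0.468) on the 6 arrays without DCI. Wnt5b differed by -0.61 ± 0.14 (SE; limma adjusted p = 0.00746), lower in 4 of 4, but by -0.27 (adjusted p = 0.318) on the 6 arrays without DCI. Wnt7b rose by 0.52 ± 0.09 (SE; limma adjusted p = 0.00146). Wnt10b rose by 0.36 and Wnt7a by 0.32, all 3 risers in 4 of 4 pairs, and other Wnt7a probe sets gave 1.44 and 0.02. Without DCI arrays Wnt10b differed by 0.19 and Wnt7a by 0.18. Wnt2 differed by -0.42 and did not pass (limma adjusted p = 0.0580).

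Fzd3, a receptor known from axon guidance and planar cell polarity, read 8.10 and 7.95 at day 8, 8.11, 8.19, 7.86 and 8.07 at day 17 and 6.80, 6.94, 6.69 and 6.31 at day 24. It was level over the first interval, and all 4 arrays of day 24 then lay below the other 6. The difference from day 17 was -1.38 ± 0.10 (SE; limma adjusted p = 5.21e-06). It was smaller on every other Fzd3 probe set, at -0.72, -0.70, -0.24, -0.10 and -0.05, and -0.53 on the mean of all its probe sets. Other Frizzled genes fell by less, Fzd6 by 0.33, Fzd4 by 0.29, Fzd7 by 0.28 and Fzd2 by 0.23, and Fzd1 rose by 0.17 (0.71 on its other probe set). Other Fzd2 probe sets gave -0.57 and -0.10. Other probe sets of Fzd6 gave 0.22 and 0.06 and that of Fzd7 gave 0.14, so those directions rest on the chosen probe set. Of the other Fzd4 probe sets, 1 gave 0.01 and the rest kept the sign.

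Lef1, the DNA-binding partner of beta-catenin, read 6.37 on both day 8 arrays, 6.56, 6.44, 6.23 and 6.45 at day 17 and 5.63, 5.52, 5.84 and 5.42 at day 24. The day 24 arrays lay below all others, with a difference of -0.82 ± 0.12 (SE; limma adjusted p = 3.47e-04). The other Lef1 probe set gave -0.03, and the mean of both -0.43. Axin2, often read as a gauge of beta-catenin activity, went 6.88 and 6.68, then 7.11, 6.96, 7.07 and 7.19, then 6.62, 6.80, 6.74 and 6.84. It was highest at day 17, without overlap with either other day, and its fall of -0.33 ± 0.09 (SE) had a limma adjusted p of 0.0156. Its other, dim probe set gave -0.10.

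Among the inhibitors, Dkk3 rose by 0.61 ± 0.10 (SE; limma adjusted p = 7.11e-04) and Sfrp1 by 0.55 ± 0.08 (SE; limma adjusted p = 5.06e-04), in 4 of 4 pairs each. Sfrp1 read 9.30, 9.32, 9.55 and 9.49 at day 24, above every day 17 array and below both day 8 arrays, and another Sfrp1 probe set gave 1.22. Sfrp2 fell by 0.47 (limma adjusted p = 0.00195), Dkk1 by 0.40 (adjusted p = 0.0430) and Dkk2 by 0.39 (adjusted p = 0.00879) on the log2 scale, each in 4 of 4 pairs, with -0.13 on the other Dkk1 probe set. Dkk2 read 6.17 and 6.48, then 6.68, 6.87, 6.80 and 6.92, then 6.08, 6.64, 6.41 and 6.57, so that day 17 lay above both other days. Sfrp4 read 5.04 and 5.36 at day 8, 5.41 to 5.91 at day 17 and 5.80 to 6.69 at day 24. It passed in none of the 6 comparisons. On the 6 arrays without DCI, however, Sfrp4 rose by 0.84 from day 17 to day 24 (limma adjusted p = 0.0342).

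Epithelial markers rose beside these changes (7 of 8, median 0.47) and 5 of 7 macrophage markers fell (median -0.73); their part was not tested. The count of 18 fell to 11 without the day 17 control, 11 without the day 17 DCI, 10 without the day 17 KGF with DCI and 11 without the day 24 DCI array. Without the day 8 control array 16 passed, with Fzd1 and Wnt10b lost. A loss particular to these genes cannot be told from a general one here. Axin2 was among the genes lost without the day 17 control, day 17 KGF with DCI, day 24 control or day 24 DCI array. On the 6 arrays without DCI 7 genes passed, 5 of them among the 18.

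With DCI, Wnt4, Fzd1, Fzd4 and Dkk3 were higher, by 0.49 to 0.68, and Dkk1, Fzd6, Fzd7 and Wnt9a were lower, with differences of -0.31 to -0.52. Each of the 8 differed in the same direction in 4 of 4 matched pairs of arrays. Of the 40 genes 10.0% were higher and 10.0% lower with DCI, beside 7.27% and 8.09% of all genes, shares near the background. Without adjustment 14 genes had a p under 0.05 (35% of the 40, beside 27.5% of all genes), and the median difference was -0.0011 over the 40 and -0.0054 over all genes.

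Of the ligands, Wnt4 read 9.19 and 9.34 without DCI and 9.63 and 9.73 with it at day 17, and 8.80 and 9.05 against 9.86 and 9.90 at day 24. The 4 arrays with DCI lay above the 4 without, by 0.68 ± 0.10 (SE; limma adjusted p = 0.00118), and a second probe set gave 0.63. Wnt9a read 8.21, 7.99, 8.17 and 7.99 without DCI and 7.81, 7.63, 7.84 and 7.84 with it, a difference of -0.31 ± 0.09 (SE; limma adjusted p = 0.0343). The groups did not overlap, but the dim second probe set gave 0.01.

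Fzd1, a receptor of the beta-catenin branch, read 10.29, 10.31, 10.50 and 10.62 without DCI and 11.14, 10.98, 11.16 and 11.12 with it. That difference, 0.67 ± 0.06 (SE; limma adjusted p = 4.23e-05), separated the groups fully, and the other probe set gave 0.54. Fzd4 read 6.99, 7.10, 6.78 and 6.82 without DCI and 7.61, 7.55, 7.16 and 7.33 with it, also with no overlap (difference 0.49 ± 0.07 SE, limma adjusted p = 0.00136). Of its other probe sets, 1 gave 0.15 (limma adjusted p over probe sets = 0.583), and the mean of its 3 probe sets gave 0.34. Fzd4 had fallen after day 8, from 7.85 and 7.90, and the arrays with DCI lay between those values and the controls.

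Fzd7 read 9.08, 8.76, 8.63 and 8.88 without DCI and 8.69, 8.71, 8.29 and 8.32 with it (difference -0.34 ± 0.09 SE; limma adjusted p = 0.0293). Fzd6 read 7.71, 7.78, 7.51 and 7.66 without and 7.45, 7.64, 6.79 and 7.31 with DCI (difference -0.37 ± 0.11 SE; limma adjusted p = 0.0392), its lowest value falling in the day 24 DCI array. Both sets of ranges overlapped, and the other Fzd7 probe set gave the opposite sign, 0.17. Of the other Fzd6 probe sets, 1 gave the opposite sign, 0.14, and the mean of its 3 probe sets gave -0.14.

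Of the inhibitors, Dkk3 read 7.17, 7.35, 7.60 and 7.76 without DCI and 7.65, 7.82, 8.49 and 8.58 with it (difference 0.66 ± 0.10 SE; limma adjusted p = 0.00101). The ranges overlapped because Dkk3 also rose with day, and within each day they did not. Dkk1 read 5.37, 5.09, 4.54 and 4.78 without and 4.47, 4.61, 4.40 and 4.23 with DCI (difference -0.52 ± 0.14 SE; limma adjusted p = 0.0289). Its second probe set gave -0.39. No Sfrp gene passed, nor did Lef1, Axin2 (difference 0.09, higher in 3 of 4 pairs) or Wif1 (0.36; limma adjusted p = 0.165). The 32 genes that did not pass lay between -0.46 and 0.36.

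All 7 macrophage markers fell with DCI (median -2.74), 5 of 8 epithelial markers rose and 1 fell (median 0.37), and 2 of 10 mesenchymal markers rose; their part in these differences was not tested. The 4 higher genes passed with any 1 array left out. Of the 4 lower ones, none passed without the day 17 control, day 17 DCI or day 24 KGF with DCI array, which left 4 genes in all. Fzd7 alone of the 4 passed without the day 17 KGF with DCI array, Dkk1 alone without the day 24 control or day 24 DCI array, and Wnt9a alone without the day 24 KGF array. Wnt9a was also lost without the day 17 KGF array. Adjusted p-values of the 4 lower genes where lost ran from 0.0506 to 0.150.

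**Figure D3:**
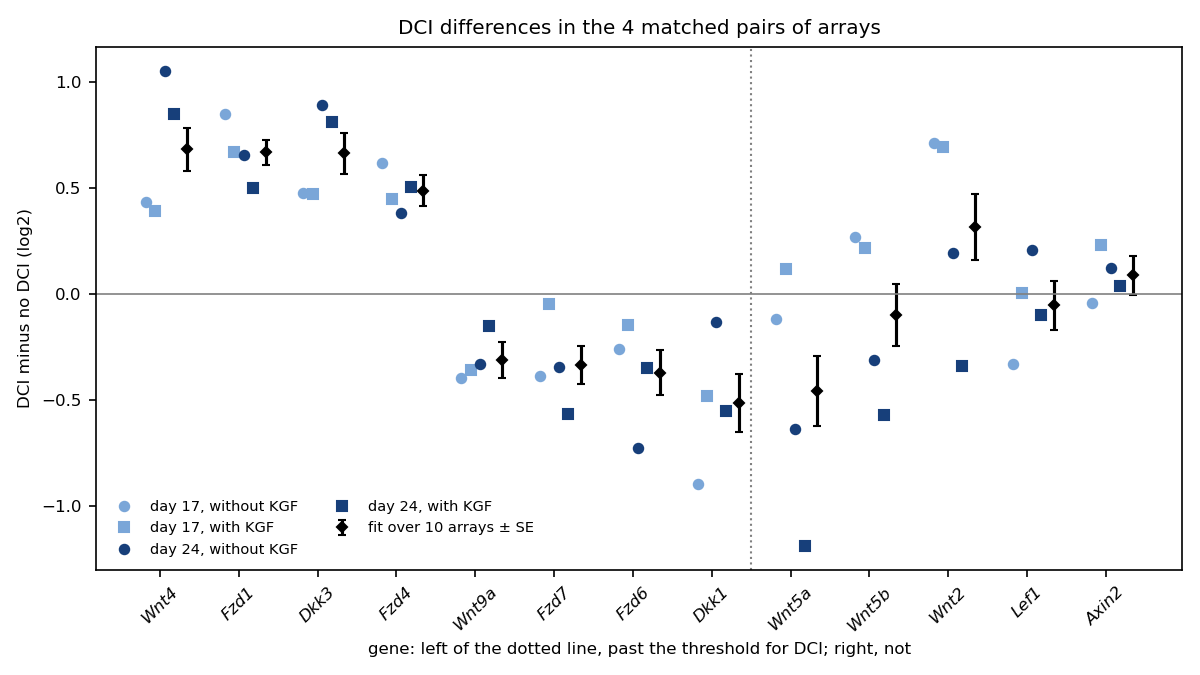
Difference with DCI minus without (log2) in each of the 4 matched pairs of arrays (days 17 and 24, with and without KGF), with the model estimate ± SE, for the 8 genes that passed (left of the dotted line) and Wnt5a, Wnt5b, Wnt2, Lef1 and Axin2. All 4 points of each of the 8 genes lie on 1 side of 0, while Wnt5a sits near 0 at day 17 and below -0.6 at day 24.

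The difference with DCI was not the same at both days for Wnt5a and Wnt4. Wnt5a differed by -0.12 without KGF and 0.12 with it at day 17 and by -0.64 and -1.19 at day 24, where it read 9.48 and 9.55 without and 8.84 and 8.36 with DCI. The day 24 groups did not overlap and the day 17 groups did. The change in the DCI difference was -0.91 ± 0.17 (SE, 8 arrays; limma adjusted p = 0.0228). Wnt4 was higher with DCI by 0.44 and 0.39 at day 17 and by 1.05 and 0.85 at day 24, a change of 0.54 ± 0.10 (SE, 8 arrays; limma adjusted p = 0.0235). These were 1 of the 40 genes higher (2.5%) and 1 lower (2.5%), beside 0.533% and 1.97% of all genes, and 9 of the 40 (22.5%) had an unadjusted p under 0.05, beside 16% of all genes.

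A few further genes had changes of like size that did not pass. Wnt5b was higher with DCI by 0.25 at day 17 and differed by -0.44 at day 24 (change -0.69 ± 0.18 SE; limma adjusted p = 0.0932). Wnt2 differed by 0.70 at day 17 and -0.07 at day 24 (change -0.78 ± 0.21 SE; limma adjusted p = 0.102). Wif1 differed by 0.04 and 0.68 (change 0.64 ± 0.21 SE; limma adjusted p = 0.162). Sfrp4, with the largest change of those that did not pass, differed by 0.29 at day 17 and -0.54 at day 24 (change -0.83 ± 0.28 SE; limma adjusted p = 0.173). Endothelial markers changed beside them (3 of 6 lower at day 24 than day 17 in this measure, median -1.08), as did 4 of 6 liver and yolk sac markers (median -1.50), and their part was not tested. Neither Wnt5a nor Wnt4 passed without the day 17 KGF, day 17 DCI, day 17 KGF with DCI or day 24 KGF with DCI array. Wnt4 was also lost without the day 24 control or day 24 DCI array (adjusted p = 0.0786 and 0.0871), and Wnt5a without the day 24 KGF array (adjusted p = 0.0577). Other Wnt5a probe sets gave -1.03, -0.75 and -0.14, and the second Wnt4 probe set 0.46.

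KGF changed no gene of the 40 past the threshold (limma; 0 of 40), beside 0.00550% of all genes higher, which is 1 gene, and 0% lower. At an unadjusted limma p under 0.05 there were 4 of the 40 (10%), beside 1466 of all genes (8.06%), a share near the background. They were Wif1, Wnt7b, Dkk2 and Dkk3, each higher in 5 of 5 pairs. Wif1 had the largest difference, 0.59 ± 0.14 (SE; limma adjusted p = 0.264), with 0.13 at day 8 and means of 0.66 at day 17 and 0.76 at day 24. On every day its KGF arrays lay above the matched arrays, as the values above and its readings of 3.67, 4.43, 4.34 and 5.11 at day 24 show. Wnt7b differed by 0.26 ± 0.08 (SE; limma adjusted p = 0.428), Dkk2 by 0.27 ± 0.09 and Dkk3 by 0.20 ± 0.09. Without day 8, on 8 arrays, 0 of the 40 passed in limma, and 3 (1559 of all genes) had an unadjusted p under 0.05. Wif1 then differed by 0.71 (adjusted p = 0.109), Wnt7b by 0.24, Dkk2 by 0.26 and Dkk3 by 0.15 (unadjusted p = 0.125), whose day 8 pair gave 0.42.

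The joint action of KGF and DCI was tested on the 8 arrays of days 17 and 24. No gene of the 40 departed from the sum of both differences (limma; 0 of 40, beside 0% of all genes higher and 0% lower), and the smallest adjusted p was 1.00. At an unadjusted p under 0.05 there was 1 of the 40, Wnt16 (-0.50 ± 0.21 SE), and 267 of all genes. Set directly against the control of the same day as single arrays, with no replicate check, KGF with DCI gave no gene of the 40 at 2-fold or more at day 17 (range -0.76 to 0.69), beside 2.93% of all genes. At day 24 it gave 3, beside 4.75% of all genes: Wif1 at 1.44 and Wnt4 at 1.10 higher, and Wnt5a at -1.12.

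The rest of the pathway was read from 6 lists of other genes, some of which share members. Beside the counts below, 7.27% of all genes were higher and 8.09% lower with DCI. From day 8 to day 17 21.4% of all genes rose and 21.0% fell, and from day 17 to day 24 14.8% rose and 22.5% fell. Among the other receptors (6 genes), Ror1 and Ror2, the receptors that bind Wnt5a, fell from day 8 to day 17, with differences of -1.49 and -1.995, and were higher with DCI by 0.86 ± 0.19 and 0.56 ± 0.10 (SE; limma adjusted p = 0.0108 and 0.00299). For Ror1 the DCI difference was larger at day 24 by 1.10. The other 4, Lrp5 and Lrp6 among them, did not pass for DCI; the list's median was 0.21. Of 4 genes of Wnt secretion, Porcn, the enzyme that attaches the lipid to Wnts, was higher with DCI by 0.58 and Wls, which carries Wnts to the surface, differed by -0.39. Porcn also rose by 0.98 between days 17 and 24.

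R-spondins strengthen Wnt signals through Lgr receptors by removing the ubiquitin ligases Rnf43 and Znrf3, which clear Frizzled from the surface. Of these 9 genes 4 were higher with DCI (Lgr5 0.67, Rnf43 0.50, Lgr4 0.33 and Rspo3 0.28) and 1 lower, Rspo2, by -1.32 ± 0.23 (SE; limma adjusted p = 0.00357), with a list median of 0.27. Rspo2 had risen by 2.19 from day 8 to day 17 while Rspo3 fell by 1.79. Of 9 further extracellular inhibitors, 4 were higher with DCI (Dkkl1 0.84, Frzb 0.67, Igfbp4 0.37 and Kremen1 0.34) and Cer1 was lower at -0.48, with a median of 0.34. Between days 17 and 24 Frzb rose by 0.96, Dkkl1 by 0.69, Kremen1 by 0.40 and Igfbp4 by 0.36. From day 8 to day 17 Sostdc1 rose by 2.41 and Frzb, a Wnt-binding protein of the Sfrp kind, fell by 2.18. Naming all genes of these counts was decided after their values were seen.

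Inside the cell, 13 of 22 pathway genes fell and 3 rose from day 8 to day 17 (median -0.36), led by the co-repressor Tle4 at -1.26. From day 17 to day 24 10 fell and 2 rose (median -0.17), led by Amer1 at -1.07. With DCI 3 fell, Tle4 by 0.40, Ctnnbip1 by 0.30 and Ctnnb1, which encodes beta-catenin, by 0.155 on the log2 scale (median 0.02).

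The 26 measured target genes of beta-catenin include Axin2, Lef1 and Dkk1, and the list also shares Lgr5, Rnf43, Znrf3, Notum and Apcdd1 with the other lists. From day 8 to day 17 9 rose and 7 fell (median 0.00), led by Msx2 at -2.08. From day 17 to day 24 4 rose and 8 fell (median -0.10), led by Bambi at -1.10 and Cdx2 at -0.95. With DCI 5 were higher and 2 lower (median 0.10), led by Cdx2 at 0.87 ± 0.19 (SE; limma adjusted p = 0.0102). Myc was higher by 0.53 and Sox9 by 0.49.

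**Figure D4:**
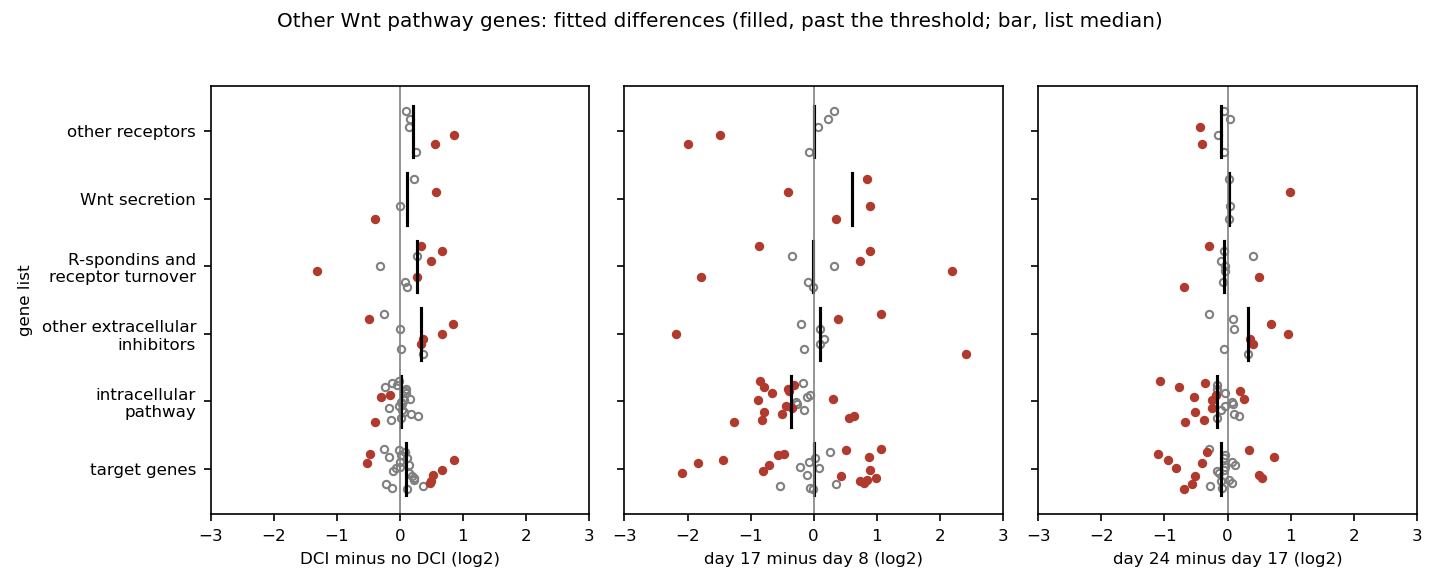
Log2 difference of each gene (point) in 6 lists of other Wnt pathway genes for day 8 to 17, day 17 to 24 and DCI, with filled points past an adjusted p of 0.05 and a bar at each list's median. Intracellular genes lie mostly below 0 from day 8 to 17 (median -0.36), and the other extracellular inhibitors mostly above 0 with DCI (median 0.34).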

How the data were processed

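Biotin-labelled RNA was hybridised to 10 Affymetrix mouse arrays, 1 for each condition. The authors deposited log2 expression values, and the submitters' processing notes name RMA as the method; RMA corrects background, quantile-normalizes the arrays and summarizes probes, which makes overall levels equal between arrays. Of 45101 probe sets, 34945 name 1 gene symbol, 932 several, 9160 none and 64 are controls; names come from the platform annotation. For each of the 18193 genes the probe set with the highest mean was used. Sequencing depth does not apply, and the number of arrays limits the precision.

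An additive linear model of day, KGF and DCI (limma 3.58.1, R 4.3.3, eBayes with trend) was fitted to all genes on 10 arrays with Benjamini-Hochberg adjustment over all of them. The interactions DCI by day and KGF by DCI were fitted on the 8 arrays of days 17 and 24. The script was tested on simulated data. Differences without error are the same model's estimates, and means of matched pairs where a day is named.

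Full statistics are given for up to 12 of the genes past the threshold with the largest differences in a comparison, and array values for Lef1, Axin2, Wif1 and the 4 genes of each family with the widest range. From other lists, up to 3 genes with the largest differences past the threshold are named, with the exceptions stated. The genes, lists and markers were chosen with earlier results of these data known. Alternatives tried were the variance trend and a robust prior, a filter on low genes, averaging over probe sets, other probe sets, a second quantile normalization, a 2-fold minimum, a looser threshold, subsets of arrays, matched pairs as blocks and leaving out each array.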

Additional observations from a re-analysis of the deposited data

Results flagged for a closer look

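The DCI difference of Wnt5a and Wnt4 differed between days 17 and 24 by an interaction test in limma. It changed by -0.91 ± 0.17 (SE, 8 arrays) for Wnt5a, whose 2 pairs gave -0.12 and 0.12 at day 17 and -0.64 and -1.19 at day 24. For Wnt4 it changed by 0.54 ± 0.10 (SE, 8 arrays), with 4 of 4 pairs higher with DCI. Single outlying arrays could not be looked for within groups, since each condition has 1 array.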

How the results depend on the processing

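The 4 genes higher with DCI (Fzd1, Fzd4, Dkk3 and Wnt4) passed in each setting tried except the 2-fold minimum, other probe sets set aside. With that minimum of 1 on the log2 scale, 0 genes remained for DCI, 11 for day 8 to 17, 1 for day 17 to 24 and 0 for DCI by day. DCI by day also gave 0 genes without the variance trend and 0 with the mean of each gene's probe sets. On the 6 arrays without DCI, day 17 to 24 gave 7 genes. Counts with the 2-fold minimum or with arrays left out, here and above, are given without the calls over all genes in the same fits. With 1 array left out, the counts ran from 4 to 8 for DCI, from 10 to 16 for day 17 to 24 and from 0 to 2 for DCI by day; the day 8 arrays are not in the interaction fits. Other probe sets of a gene reversed the sign 9 times: for DCI Fzd6 (0.14), Fzd7 (0.17) and Wnt9a (0.012); for day 8 to 17 Fzd1 (0.013) and Wnt9a (-0.039); and for day 17 to 24 Fzd4 (0.014), Fzd6 (0.22 and 0.056) and Fzd7 (0.14). The cause was not tested. Fits in limma with the matched pairs of arrays as blocks were an alternative chosen after seeing the data. They gave 7 genes for DCI (Fzd6 lost), beside 2531 of all genes, and 13 for day 17 to 24, beside 6072. For KGF they gave 0, beside 10 of all genes. At an unadjusted p under 0.05 there were 8 for KGF, beside 1927 of all genes. Signal limits the 17 genes below the median of all gene values on every array, where a change may be understated.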
